A study of Homo sapiens with 4 samples.

Results

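The genes described here encode proteins of the translation machinery, namely ribosomal proteins, initiation and elongation factors and aminoacyl-tRNA synthetases. They were taken from the authors' table of probe sets that differed between 1 array of CD26+ cells and 1 array of CD26- cells, by the gene symbol alone. A row was kept where its symbol was single and began like RPL, RPS, EIF or EEF followed by a digit, or named a tRNA synthetase. This gave 91 probe sets of 62 genes, out of 8413 single-symbol probe sets of 6603 genes in the table. The 62 genes were 26 ribosomal protein genes, 20 initiation factor genes, 1 elongation factor gene, 7 cytosolic tRNA synthetase genes, 1 mitochondrial synthetase gene and 7 other genes of none of these groups whose symbols matched the pattern. Counted with the initiation factors were the eIF2 kinases EIF2AK1, EIF2AK2 and EIF2AK4 and the EIF4E-binding proteins EIF4EBP1 and EIF4EBP2, which regulate factors and are none themselves. All 62 genes were matched by Entrez identifier to current annotation, in which 10 have another symbol, for example AARS1 for AARS and AGO2 for EIF2C2. The table's symbols are used below.

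Ribosomal proteins form the large and the small subunit of the ribosome together with ribosomal RNA. Initiation factors bring the small subunit, the initiator tRNA and the capped mRNA together, and elongation factors deliver each further tRNA, which a tRNA synthetase has loaded with its amino acid. Messenger RNAs of ribosomal proteins and of many factors begin with a run of pyrimidines that puts their translation under control of mTORC1 signalling, whereas several cytosolic synthetase genes are known targets of ATF4, the transcription factor of the amino acid response.

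All cells came from HT29, an established human colorectal adenocarcinoma cell line grown without any treatment in serum-containing medium. Cells stained for CD26, the surface peptidase that DPP4 encodes, were separated by FACS into 2 samples of CD26+ cells, the brightest of the stain, and 2 samples of CD26- cells, the dimmest. Total RNA of each sample was hybridised to 1 Affymetrix U133 Plus 2.0 array, and the question was which genes differ between the CD26+ and the CD26- cells. By their labels the replicates of a group are biological, but what separates them is not said, so p-values cover only the scatter between these samples and that scatter may be technical. In such bulk RNA a lower signal from fewer cells of a type and from less RNA per cell cannot be told apart.

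A pair of arrays limited every comparison between the groups. CD26+ replicate 2 stood apart from the rest, with correlations of only 0.304 to 0.333 with the other arrays, which reached 0.918 among themselves, and its median signal was 270.3, against 79.1 on CD26+ replicate 1 and 76.1 and 96.8 on the CD26- arrays. The median of its hybridisation controls was 79650, and on the other 3 arrays it was 4689 to 6591. The array labelled CD26- replicate 2 went against its label in DPP4, the gene of the gate, whose signal was 6649 and 2513 on the CD26+ arrays and 1952 and 6465 on the arrays labelled CD26-. Of 12 colon epithelial markers, 7 had a single-symbol probe set in the authors' table, which lists differences between arrays and does not show presence. The summed signal of these 7 was 57254 and 2881 on the CD26+ arrays and 62654 and 132738 on the CD26- arrays. Of 7 blood and immune markers, CD14 and LYZ were listed, with a summed signal of 2379 and 157 on the CD26+ arrays and 6783 and 4488 on the CD26- arrays. Of 8 markers of fibroblasts and endothelium, COL1A1 and DCN were listed, with a summed signal of 369.8 and 3388 on the CD26+ arrays and 41.6 and 374 on the CD26- arrays. No listed marker had a signal of 0, and the part of these markers in the results below was not tested.

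The authors' table compared CD26+ replicate 1 with CD26- replicate 1, since its fold changes matched the values of these 2 arrays in all 11430 probe sets with a largest difference of 1.21e-05 on the log2 scale. The header of that table gives its CD26+ array the number 2, so the replicate number used here follows the sample labels and the values and not that header. A difference between these 2 arrays chose the members and is given as a description only. Closest to the fold of 2 that the members share were RARS with a 2.00-fold lower signal in CD26+ replicate 1, EIF3D with a 2.01-fold higher one and the RPL7 probe set 217092_x_at with a 2.02-fold higher one. Farthest from it were the EIF3F probe set 226014_at (13.5-fold higher), RPS27 (11.5-fold lower) and EIF3C (8.47-fold lower). Probe sets just outside the fold are not in the table and have no gene name here.

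The start of a gene shows which of these messages could carry a pyrimidine run, so 30 bases around the annotated start were read from RefSeq (GRCh38.p14) for the 49 of 62 genes with a promoter in the table used here. A run was counted where at least 5 bases, a C followed by C or T only, began within 5 bases of the start. It was found in 17 of 21 ribosomal protein genes (81.0%), 8 of 16 initiation factor genes (50%), 1 of 7 synthetase genes (14.3%) and 0 of 5 of the other genes, against 5749 of all 27305 promoters (21.1%). Such a run is a description of the letters and not evidence that it acts in these cells. The lines below give 10 bases before and 20 from the annotated start on, with the run in capitals, for genes that the results turn on.
RPL3 (chr22:39319604-39319633, minus strand): gccgaccggCCTCTaccggcgggatttgat
RPL7A (chr9:133348208-133348237, plus strand): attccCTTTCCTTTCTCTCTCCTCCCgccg
RPL12 (chr9:127451387-127451416, minus strand): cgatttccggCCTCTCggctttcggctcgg
RPL35A (chr3:197950180-197950209, plus strand): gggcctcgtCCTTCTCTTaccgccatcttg
RPL18 (chr19:48619159-48619188, minus strand): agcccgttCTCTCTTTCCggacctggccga
RPS27 (chr1:153990752-153990781, plus strand): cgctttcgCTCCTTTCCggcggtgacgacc
EIF3D (chr22:36529147-36529176, minus strand): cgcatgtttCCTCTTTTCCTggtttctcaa
EIF3F (chr11:7987327-7987356, plus strand): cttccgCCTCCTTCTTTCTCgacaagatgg
EIF4B (chr12:53006446-53006475, plus strand): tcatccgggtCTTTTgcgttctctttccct
GARS (chr7:30594725-30594754, plus strand): ggagaaaaCCTTCggcggggtccttccggg
For contrast, the same window of 3 further members holds no such run and is printed with no capitals.
EIF3I (chr1:32222397-32222426, plus strand): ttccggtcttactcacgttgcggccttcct
SARS (chr1:109213883-109213912, plus strand): gcgcctgcgcaggaagggcgggtcagcgcg
WARS (chr14:100376308-100376337, minus strand): tccggacggcgtttccacggacgcccagga
Of the runs shown the longest had 21 bases, in RPL7A, and the shortest had 5 bases, in RPL3, EIF4B and GARS.

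The motif TGATGNAA, to which ATF4 binds together with a C/EBP partner, was searched on both strands of the 300 bases from 250 before to 50 after each annotated start. It was found in 2 of 7 synthetase genes (28.6%), 1 of 21 ribosomal protein genes (4.76%) and 0 of 16 initiation factor genes, against 1003 of all 27305 promoters (3.67%). Its first base lay 187 bases before the start in AARS, 107 bases before it in RPL31 and 2 bases before it in CARS, where the match runs across the annotated start, each time on the other strand, so that the capitals read as the reverse complement.
AARS (chr16:70289675-70289704, minus strand): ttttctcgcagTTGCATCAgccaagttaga
CARS (chr11:3057407-3057436, minus strand): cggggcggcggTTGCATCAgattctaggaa
RPL31 (chr2:101002171-101002200, plus strand): gcgcgcgccgcTTACATCAtagctcgcctc
A match of these letters is not a binding site. GARS, SARS, WARS, RARS and MARS2 had no match in this window.

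Between all CD26+ and all CD26- arrays no member passed the test. Signals were quantile normalized, log2(signal + 16) was taken, and limma with Benjamini-Hochberg adjustment called 0 of 54613 probe sets (0%) and 0 of 91 member probe sets at an adjusted p of 0.05. Without adjustment 852 of all probe sets and 0 of the member probe sets had a p under 0.05, and the adjusted p of the members lay between 0.79 and 0.997. Without CD26+ replicate 1 the same fit called 23148 probe sets, 41 of them members, and there the lone CD26+ array is the one that stands apart and is assumed to vary like the CD26- arrays. For a single gene an exact permutation test of 2 against 2 arrays cannot go below 0.33. The values below are given as levels and differences, none of which exceeded the spread between arrays of the same group by this test. On the normalized scale 7 of 62 genes had both CD26+ values above both CD26- values, against 20.5% of all probe sets and 24.4% of all genes of the table. In the other direction 13 genes had both CD26+ values below both CD26- values, against 16.2% of all probe sets and 19.5% of all genes of the table, and in 42 genes the groups overlapped. Centring each array on its median leaves its shape as deposited. These counts were then 4 higher and 14 lower, with no share over all genes counted. Without CD26+ replicate 2 they were 35 higher and 16 lower, against 46% and 32% of all genes of the table. The arrays left then include both arrays of the pair that chose the members. Without the array labelled CD26- replicate 2 they were 10 higher and 17 lower, with no share over all genes counted. Groups overlap less easily with an array left out, so these counts are not comparable with those of all 4 arrays. When each CD26+ array was set against each CD26- array, a gap of at least 2-fold in all 4 pairings was seen for EIF2C1, which was higher (2.13% of all probe sets and 5.18% of all genes of the table), and for EIF3C, RPL18 and RPS6KA5, which were lower (2.52% and 5.33%).

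**Figure D1:**
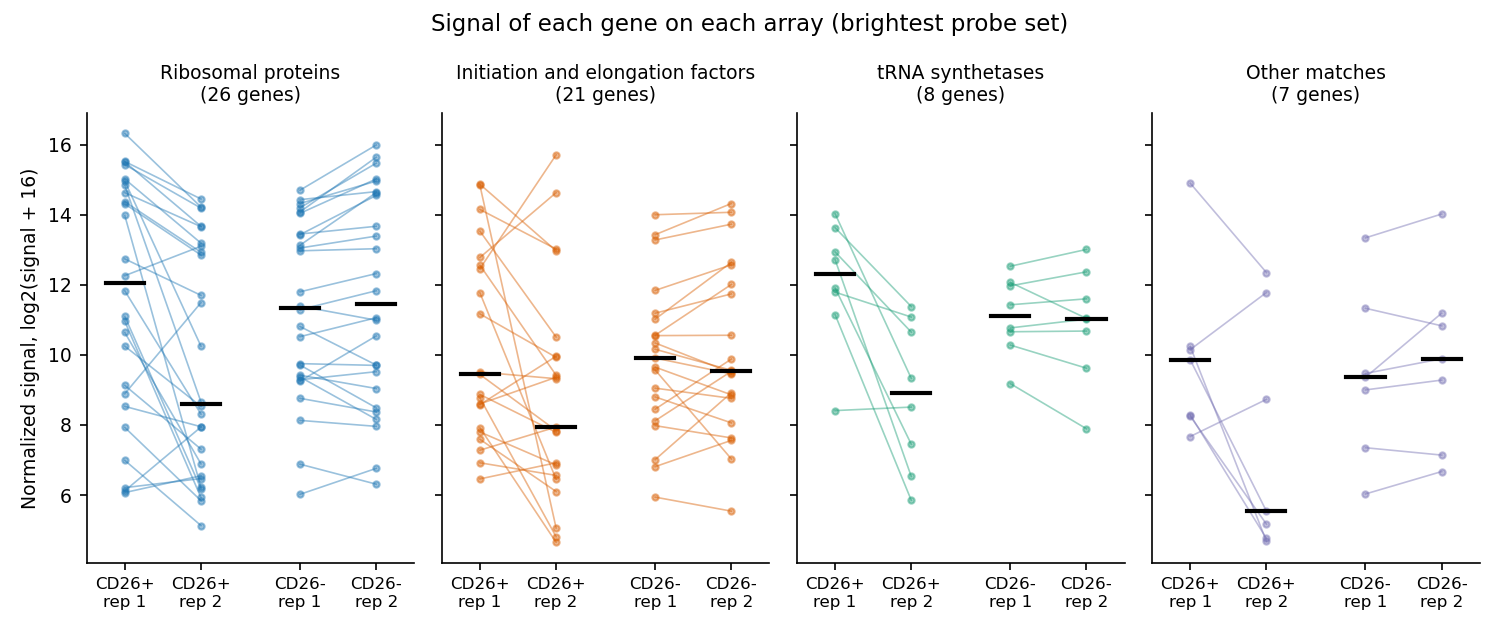
Normalized signal, log2(signal + 16), of the brightest probe set of each of the 62 genes on each of the 4 arrays, by class of gene. Points of a gene within a group are joined and black bars are medians over genes. The medians of all 4 classes were lowest on CD26+ replicate 2, while CD26+ replicate 1 lay highest for ribosomal proteins and tRNA synthetases.

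The classes had medians below 0 over all 4 arrays. The CD26+ minus CD26- difference on the log2 scale, called the log2 fold change below, had a median of -0.68 over the 26 ribosomal protein genes, -0.84 over the 21 initiation and elongation factor genes and -0.17 over the 8 tRNA synthetase genes. Over all probe sets the median was 0.11, and over all genes of the table it was 0.04. The scaling moved this common level, to 0.63 with the signals as deposited and -0.06 with centred arrays, and relative to it the class medians were -0.79, -0.99 and -0.99 for ribosomal proteins under quantile normalization, as deposited and centred, -0.95, -0.94 and -0.94 for factors, and -0.28, -0.46 and -0.46 for synthetases. Not relative to it, the synthetase median was 0.17 with the signals as deposited. These signs rested on CD26+ replicate 2. Without it the medians were 0.66 for ribosomal proteins, 0.63 for factors and 1.24 for synthetases. The median was then 0.03 over all probe sets and 0.42 over all genes of the table. These positive class medians partly restate the choice of members, since the pair that chose them was among the arrays left. All genes of the table were chosen on that pair too, but all probe sets were not. The same limit holds for the estimates of single genes and lists without this array given below. Leaving out the array labelled CD26- replicate 2 instead, the class medians were -0.48, -0.38 and -0.66 in the same order of classes.

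CD26+ replicate 2 gave most members a lower signal than its own replicate. Of the 62 genes, 42 were at least 2-fold lower and 7 at least 2-fold higher on CD26+ replicate 2 than on CD26+ replicate 1, against 41.4% and 31.3% of all genes of the table. On the pair of arrays that the choice of members did not use, CD26+ replicate 2 was at least 2-fold below the array labelled CD26- replicate 2 in 37 genes and at least 2-fold above it in 7, against 39.0% and 34.3% of all genes of the table. Lower signals on this array were common among bright probe sets of any gene, since 2002 of the 2731 probe sets in the top 5% of CD26- replicate 1 were at least 2-fold lower in the same pair. The members were bright, since their median signal on CD26- replicate 1 lay at percentile 89.0 of that array, while the median over all genes of the table lay at percentile 59.1.

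Among tRNA synthetases, 6 of 7 cytosolic enzymes were at least 2-fold higher on CD26+ replicate 1 than on either CD26- array. They were AARS, CARS, GARS, SARS, WARS and YARS, which load alanine, cysteine, glycine, serine, tryptophan and tyrosine. YARS is named beside the others after its values were seen. Over all members, CD26+ replicate 1 lay above both CD26- arrays in 35 genes and below both in 16, against 46% and 32% of all genes of the table. By at least 2-fold it was above both in 14 and below both in 4, against 12.9% and 10.1%. The first of the CD26- arrays is the one the members were chosen on, so nothing is read from these counts.
SARS gave signals of 9526 and 1312 on CD26+ replicates 1 and 2, against 1854 and 2194 on the CD26- arrays. GARS had 15415 and 1850.4 on the CD26+ arrays, against 4563 and 5437 on the CD26- arrays. CARS, the brightest of the class by its probe set 212971_at, had 20501 and 763 on the CD26+ arrays, against 6758 and 8051 on the CD26- arrays. In these 3 genes the CD26- arrays lay close together and between the CD26+ arrays. WARS had 4392 and 319.6 on the CD26+ arrays, against 1262 and 775 on the CD26- arrays. YARS had 8040.3 and 164 on the CD26+ arrays, against 3095 and 3284 on the CD26- arrays. AARS had 4017 and 1596 on the CD26+ arrays, against 1702 and 1728 on the CD26- arrays. AARS was the only synthetase higher on both CD26+ arrays after normalization, and before it CD26+ replicate 2 lay just under the CD26- arrays.

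These 6 genes were singled out by their distance from both CD26- arrays, so how near those 2 arrays lay to each other is a description. In deposited signals the fold of CD26+ replicate 1 over the array labelled CD26- replicate 2 was 5.67 for WARS, 4.34 for SARS, 2.84 for GARS, 2.55 for CARS, 2.45 for YARS and 2.32 for AARS. Over all 8 synthetase genes, chosen without regard to that array, CD26- replicate 2 minus CD26- replicate 1 ran from -1.29 for MARS2 to 0.48 for CARS on the log2 scale, and the array labelled CD26- replicate 2 was nearer to CD26- replicate 1 than to CD26+ replicate 1 in 6, against 52.7% of all genes of the table. RARS, the arginine enzyme, departed from the rest, with signals of 2462 and 98.3 on the CD26+ arrays, against 4925 and 2233 on the CD26- arrays. MARS2, which loads methionine in mitochondria, was dim, with 235 and 549 on the CD26+ arrays, against 495 and 183 on the CD26- arrays. In RARS the array labelled CD26- replicate 2 lay near CD26+ replicate 1, and in MARS2 the groups overlapped in full.

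In limma the log2 fold changes of the synthetases were 0.90 for SARS (standard error 1.06), 0.76 for AARS (0.83), 0.33 for GARS (1.06), -0.27 for WARS (1.58), -1.09 for CARS (1.64), -1.89 for YARS (2.04) and -3.06 for RARS (1.82), none past the test. With centred arrays AARS was at -0.14 and GARS at -0.59. Without CD26+ replicate 2 the estimates were 2.05 for SARS, 1.96 for WARS, 1.46 for GARS, 1.26 for CARS, 1.21 for YARS and 1.11 for AARS, against -0.41 for RARS and -0.13 for MARS2. On these 3 arrays SARS and WARS thus came first and RARS last, an order with no replicate on the CD26+ side. A second probe set of CARS gave 1987 and 444 on the CD26+ arrays, against 712 and 1020.1 on the CD26- arrays. A second one of WARS gave 844 and 414 on the CD26+ arrays, against 355 and 44.6 on the CD26- arrays. Both were higher on CD26+ replicate 1 than on either CD26- array, like the brighter probe set of the same gene. Each of the 10 synthetase probe sets had 1 alignment, on the chromosome of its gene.

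**Figure D2:**
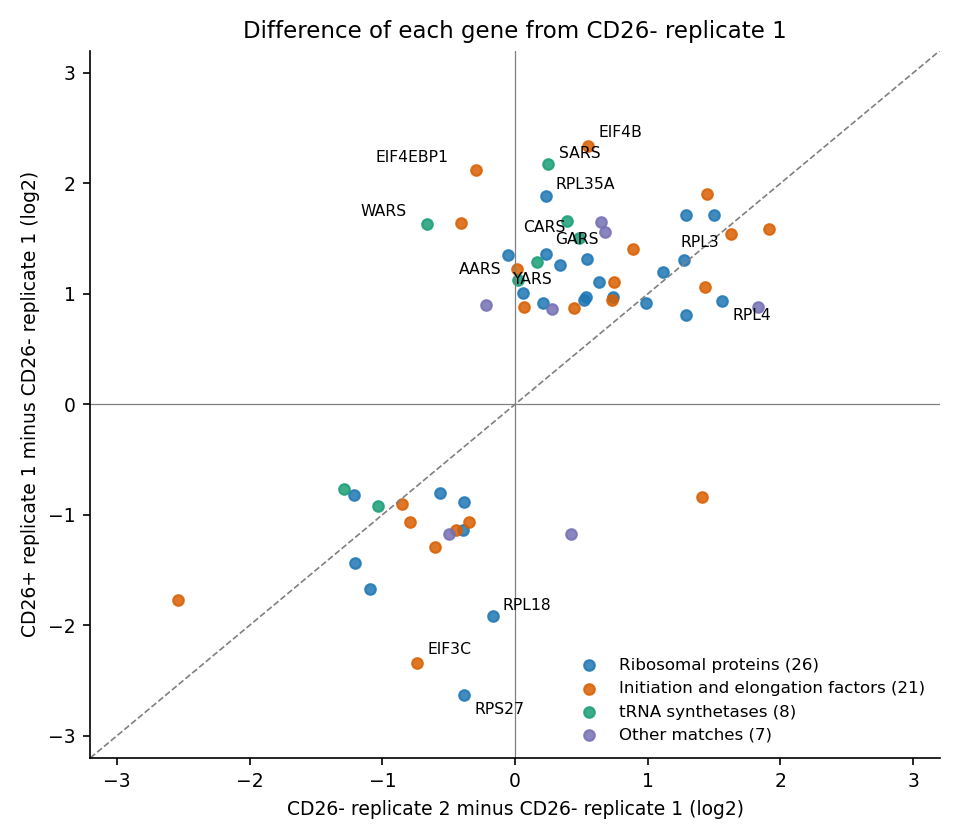
Difference in normalized log2 signal from CD26- replicate 1 for each of the 62 genes, for CD26+ replicate 1 (vertical axis, log2) and for the array labelled CD26- replicate 2 (horizontal axis, log2). The vertical gap around 0 is set by the choice of members, the dashed line marks equal values, and the 6 cytosolic synthetases named above lie between -0.66 and 0.48 on the horizontal axis.

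ATF4 itself, from a list of 22 genes of mTORC1 signalling and translation control, gave 34658 and 600.2 on the CD26+ arrays, against 16538 and 17355 on the CD26- arrays. Its log2 fold change was -2.29 (standard error 2.02), or 0.78 without CD26+ replicate 2. ATF4 thus had CD26+ replicate 1 highest and CD26+ replicate 2 lowest, as had CARS, GARS, SARS, WARS and YARS, and AARS in deposited signals. Many members of other classes had this order too, among them EEF1D, EIF3F, EIF3L, EIF4B, RPL3, RPL7A, RPL35A, RPS14P3 and RPS6KC1. The order is thus not particular to the synthetases, and the share of all genes with it was not counted. A link between ATF4 and the synthetases was not tested. ATF4 was named after its values were seen.

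The EIF4E-binding proteins, inhibitors of cap-dependent initiation, were higher on both CD26+ arrays. EIF4EBP1, which holds the cap-binding protein EIF4E until mTORC1 phosphorylates it, gave 2498 and 963 on the CD26+ arrays, against 445 and 389 on the CD26- arrays. EIF4EBP2, its relative, was far dimmer and had 109.7 and 119 on the CD26+ arrays, against 22.3 and 16.9 on the CD26- arrays. After normalization the groups did not overlap in either gene, and 24.4% of all genes of the table were likewise higher on both CD26+ arrays. In EIF4EBP2 this rested on a small gap, since CD26+ replicate 2 lay only 0.16 above CD26- replicate 1 on the normalized log2 scale. Its signal on CD26+ replicate 2 was at percentile 30.4 of that array. The log2 fold changes were 1.65 for EIF4EBP1 (standard error 0.89) and 1.10 for EIF4EBP2 (0.92), and 2.27 and 1.85 without CD26+ replicate 2. EIF4EBP1 ranged from 1.03 to 2.58 over the alternatives tried and kept its sign in all 12. With its groups apart, leaving out a single array could not have changed that sign. EIF4E, the protein they bind, was lower on both CD26+ arrays in its brighter probe set, with 623 and 399.7 on the CD26+ arrays, against 1334 and 700.5 on the CD26- arrays. This too rested on a small gap, since CD26+ replicate 1 minus the array labelled CD26- replicate 2 was -0.05 on the normalized log2 scale. The second probe set of EIF4E overlapped between the groups. EIF4B, which stimulates the helicase EIF4A, had 14331 and 1232 on the CD26+ arrays, against 2604 and 3653 on the CD26- arrays, and its log2 fold change was 0.56 (standard error 1.23), -0.25 with centred arrays and 2.07 without CD26+ replicate 2. EIF4EBP2, EIF4E and EIF4B were named after their values were seen.

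Subunits of EIF3, the scaffold that holds the small ribosomal subunit during initiation, lay on both sides of 0. The 8 EIF3 genes had a median log2 fold change of -1.48, and 0.71 without CD26+ replicate 2. Of these, 2 were higher and 3 lower on both CD26+ arrays, against 24.4% and 19.5% of all genes of the table. EIF3I had 6702 and 80291 on the CD26+ arrays, against 1575 and 4352 on the CD26- arrays. EIF3D had 8395 and 23922 on the CD26+ arrays, against 4169 and 6219.5 on the CD26- arrays, so both of these were highest on CD26+ replicate 2, where bright probe sets were mostly low. EIF3F had 35014 and 5348 on the CD26+ arrays, against 16645 and 16131 on the CD26- arrays, and its groups overlapped. EIF3L was dim on CD26+ replicate 2 alone, with 34417 and 48.5 on the CD26+ arrays, against 12038 and 19049.7 on the CD26- arrays. EIF3C was low on CD26+ replicate 1, with 41.9 and 221 on the CD26+ arrays, against 355 and 213 on the CD26- arrays. In deposited signals the CD26+ arrays thus overlapped the array labelled CD26- replicate 2 in EIF3C, and they did so no longer after normalization.

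The log2 fold changes were 2.80 for EIF3I (standard error 1.34), 1.5 for EIF3D (1.0), -0.11 for EIF3F (0.98), -1.74 for EIF3C (0.84) and -3.93 for EIF3L (3.08). Without CD26+ replicate 2 they were 1.18 for EIF3I, 0.58 for EIF3D, 0.84 for EIF3F, -1.97 for EIF3C and 0.96 for EIF3L. EIF3I, EIF3D and EIF3C kept their signs under every alternative tried. Their groups did not overlap after normalization, so leaving out a single array could not have changed the sign. A second, dim probe set of EIF3F (226014_at) gave 175 and 484 on the CD26+ arrays, against 13.0 and 77.6 on the CD26- arrays, and its first alignment in the authors' table lies on chromosome 21, while the gene lies on chromosome 11.

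The eIF2 kinases and the remaining factors were mixed. EIF2AK2, the kinase PKR, which shuts initiation down on double-stranded RNA, was lower on both CD26+ arrays after normalization, with a log2 fold change of -1.07 (standard error 0.81). In deposited signals its groups overlapped, with 63.1 and 168 on the CD26+ arrays, against 164 and 144 on the CD26- arrays. EIF2AK4, the amino acid sensor GCN2, and EIF2AK1, the haem-regulated kinase, overlapped between the groups and had log2 fold changes of 0.25 and -0.84. EIF5A2, a hypusine-bearing factor of elongation and termination, gave 84.6 and 419.7 on the CD26+ arrays, against 186 and 719.5 on the CD26- arrays. EEF1D, the exchange factor subunit of the elongation complex and the only EEF gene among the members, had 22438 and 5592 on the CD26+ arrays, against 11049 and 12745 on the CD26- arrays. The log2 fold change of EIF5A2 was -1.21 (0.93 standard error) and kept its sign under all alternatives tried. Its groups did not overlap after normalization, so leaving out a single array could not have changed that sign. EEF1D was at 0.09 (0.88) and at -0.78 with centred arrays. Over the class, 4 of 21 genes were higher on both CD26+ arrays and 6 were lower, against 24.4% and 19.5% of all genes of the table, and the kinases were named after their values were seen.

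Ribosomal protein genes are described by brightness, the brightest first. RPL35A of the large subunit, the brightest on CD26+ replicate 1, gave 60813 and 16536 on the CD26+ arrays, against 20973 and 24350 on the CD26- arrays. RPL12, which lies in the stalk that recruits translation factors, had 47781 and 20029.9 on the CD26+ arrays, against 23442 and 50653 on the CD26- arrays. RPL7A had 45760 and 16039 on the CD26+ arrays, against 19782 and 31007 on the CD26- arrays. In RPL12 the highest of the 4 signals was that of the array labelled CD26- replicate 2, and in RPL35A and RPL7A that of CD26+ replicate 1. RPL3, whose product helps to shape the peptidyl transferase centre, had 47513 and 9978 on the CD26+ arrays by its probe set with the highest mean of normalized log2 values, against 18315 and 42898 on the CD26- arrays. The other 4 probe sets of RPL3 gave from 16543 to 52024 on CD26+ replicate 1 and from 15526 to 49225 on the array labelled CD26- replicate 2, against 4994 to 18979.6 on CD26- replicate 1. In all 5 RPL3 probe sets CD26+ replicate 1 lay close to the array labelled CD26- replicate 2.

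Of the 43 ribosomal protein probe sets, 20 were in the top 5% of signals on CD26- replicate 1. In 15 of these 20 the array labelled CD26- replicate 2 was nearer to CD26+ replicate 1 than to CD26- replicate 1, and over the 20 it was higher than CD26- replicate 1 by a median of 1.12 on the log2 scale. The 15 are not separate genes, since all 5 probe sets of RPL3, the 2 of RPL4 and the 2 of RPL29 are among them. Counted by gene over all 26 ribosomal protein genes, it was nearer in 15, against 3120 of all 6603 genes of the table. Of the 474 single-symbol probe sets of the table in that range, 248 were nearer to CD26+ replicate 1, and CD26- replicate 2 minus CD26- replicate 1 had a median of -0.50. All of these probe sets entered the table through a difference from CD26- replicate 1. The 20 were all higher on CD26+ replicate 1 than on CD26- replicate 1, the pair they were chosen on, as were 163 of the 474 and 57.7% of all genes of the table. All 20 were also lower on CD26+ replicate 2 than on CD26+ replicate 1, by a median of 1.95, as were 422 of the 474, whose difference of CD26+ replicate 2 minus CD26+ replicate 1 had a median of -3.77. Of the 23 dimmer probe sets, 11 were higher and 12 lower on CD26+ replicate 1 than on CD26- replicate 1.

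**Figure D3:**
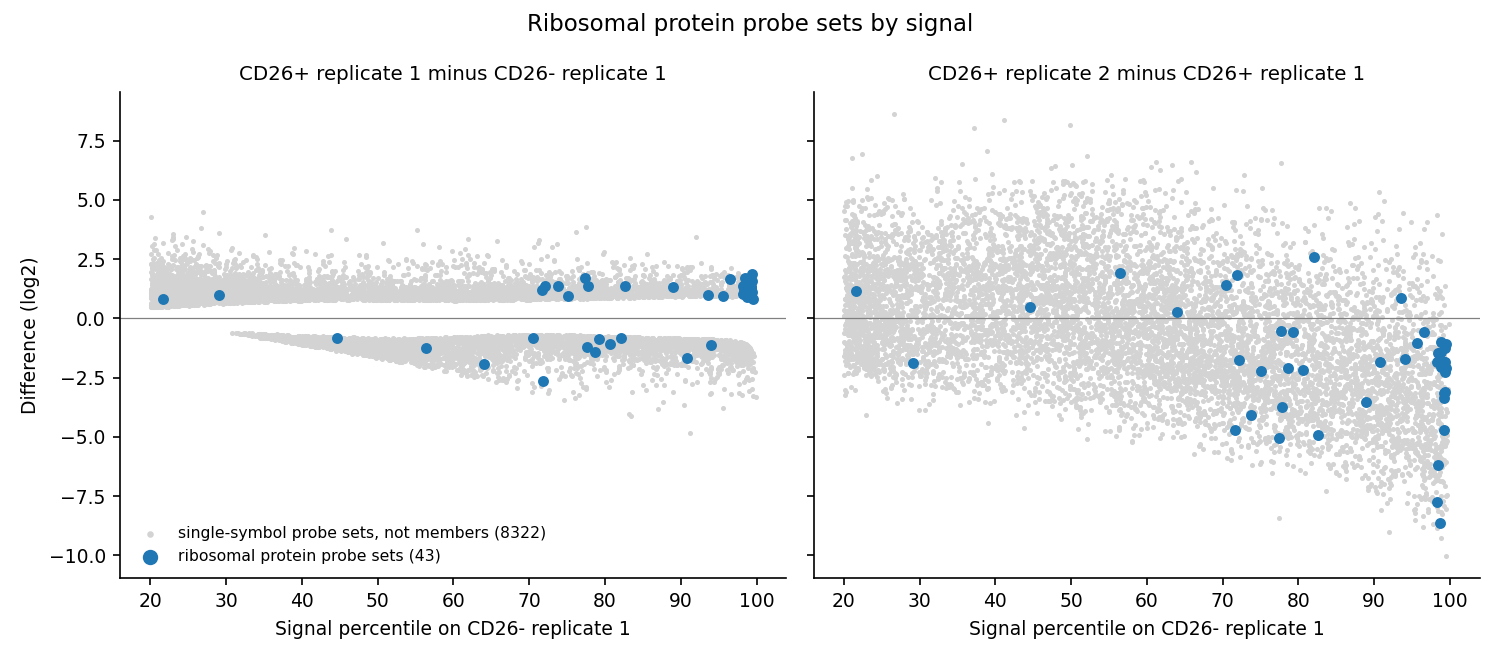
Log2 difference of the 43 ribosomal protein probe sets (blue) and of the 8322 single-symbol probe sets that are not members (grey) against their signal percentile on CD26- replicate 1. The left panel is CD26+ replicate 1 minus CD26- replicate 1, the pair the table was chosen on, and the right panel is CD26+ replicate 2 minus CD26+ replicate 1, in which all 20 blue points of the top 5% lie below 0.

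Of the 26 ribosomal protein genes, 6 were lower and 1 higher on both CD26+ arrays after normalization, against 19.5% and 24.4% of all genes of the table. The 6 lower ones were among the dimmer genes. RPL18 gave 32.4 and 157 on the CD26+ arrays, against 188 and 194 on the CD26- arrays. RPS27, a zinc finger protein of the small subunit, had 29.5 and 419 on the CD26+ arrays, against 339.9 and 281 on the CD26- arrays, and the groups overlapped in deposited signals but not after normalization. The log2 fold changes were -1.70 for RPL18 (standard error 0.80) and -1.53 for RPS27 (0.98), and -1.83 and -2.44 without CD26+ replicate 2. Both were negative under every alternative tried, though with the groups apart leaving out a single array could not have changed the sign. Besides these, RPL5, RPL10, RPL17 and RPL37A were lower on both CD26+ arrays after normalization, with log2 fold changes from -2.04 for RPL37A to -0.99 for RPL17. These 4 genes were named after their values were seen.

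Many of the ribosomal protein probe sets are shared with copies of the gene elsewhere in the genome, of which human ribosomal protein genes have many as processed pseudogenes. Of 43 probe sets, 17 (39.5%) carry the _x_at suffix that the manufacturer gives to probes matching several transcripts, against 7.83% of all single-symbol probe sets of the table. The first alignment lay on a chromosome other than the gene's in 16 of 43 (37.2%), against 1.93% of all of these, and 6 had no alignment on the gene's chromosome at all. The alignments follow the authors' table, whose genome build is not given in the sources used here. RPL3 lies on chromosome 22, where its brightest probe set aligned at chr22:39708889-39711502 on the minus strand, while 3 of the other 4 aligned first to chr14:57445124-57446417 or within it. RPS27 aligned to chr11:116906746-116907389, although the gene lies on chromosome 1. Signals of such genes may sum over copies and are uncertain for the gene named. The initiation and elongation factors had 4 of 28 such first alignments (14.3%), EIF3L and EIF4E among them.

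Probe sets of 1 gene did not always move together. Of 21 genes with more than 1 probe set, 10 had log2 fold changes on both sides of 0, and 4 lay on both sides already between CD26+ replicate 1 and CD26- replicate 1. RPL35A had a bright probe set at 0.72 and a dim one at 0.19 (37.8 and 496 on the CD26+ arrays, against 111 and 61.2 on the CD26- arrays). RPL7A had 4 probe sets from -0.85 to 0.23, and EIF3B had 3 from -2.82 to 1.16. The remaining 41 genes had 1 probe set and no such check.

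**Figure D4:**
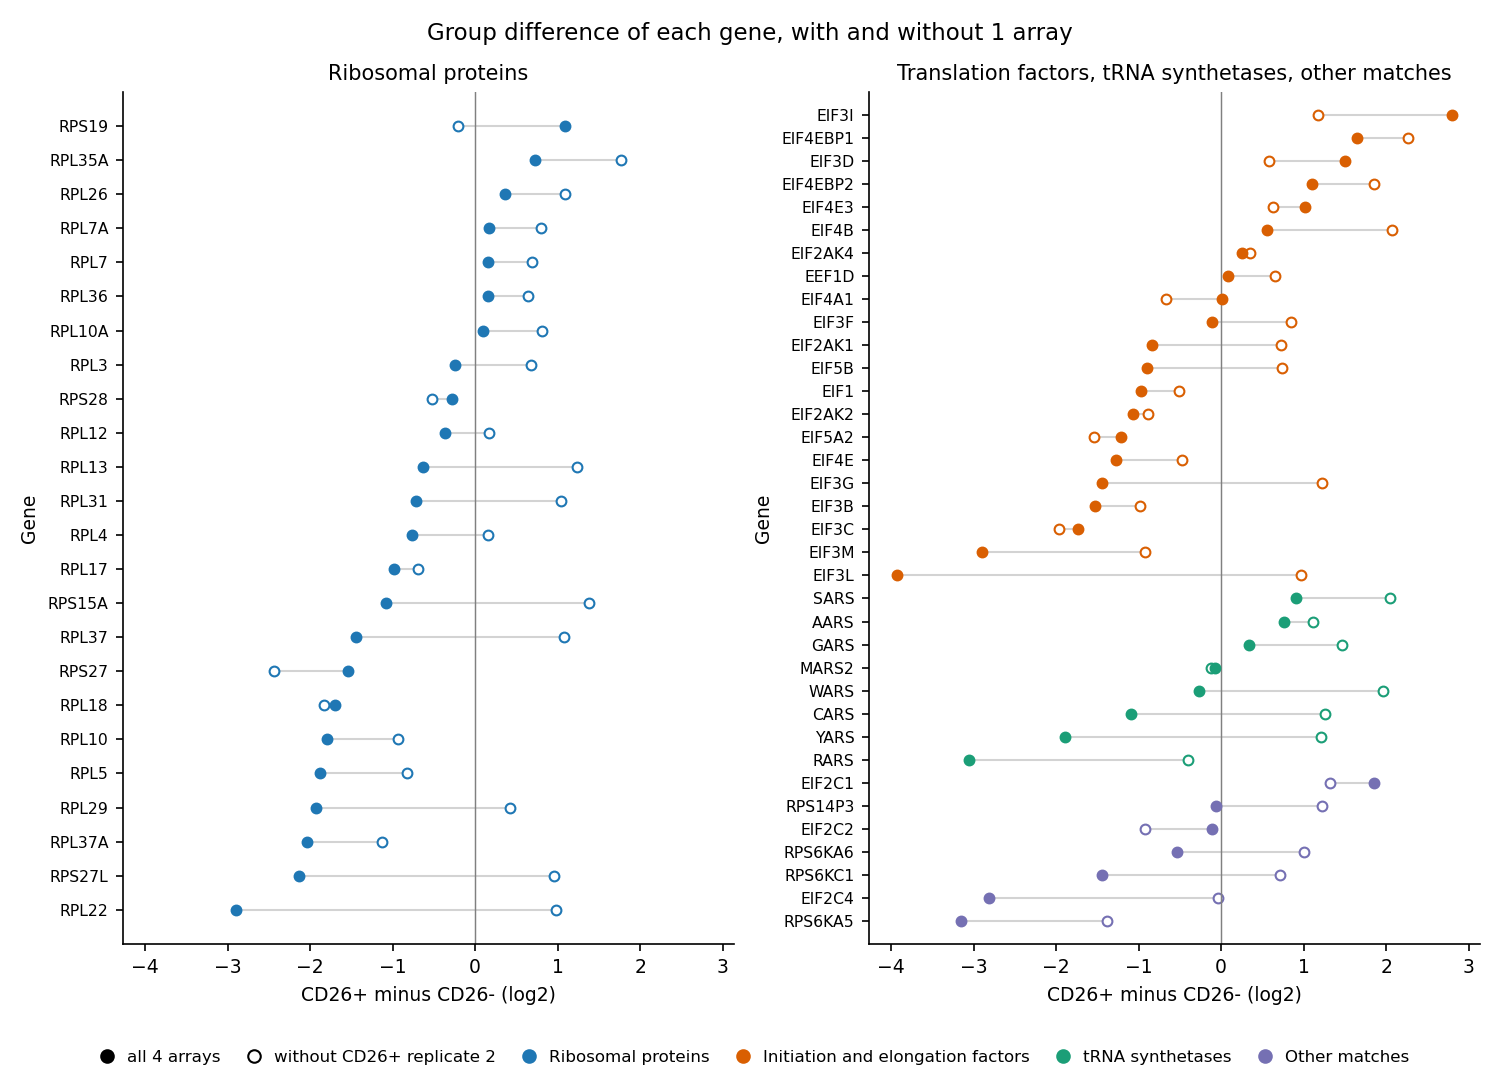
Log2 fold change, CD26+ minus CD26-, for the brightest probe set of each gene, from all 4 arrays (filled) and without CD26+ replicate 2 (open), for ribosomal proteins (left, 24 of the 26 genes) and the other classes (right). Most lines cross or approach 0, and RPL18, RPS27 and EIF3C stay below 0 while EIF4EBP1, EIF3D, EIF3I and EIF2C1 stay above it. In these genes the groups did not overlap, so the sign could not change with an array left out.

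The 7 further matches were 3 Argonaute genes with older EIF2C symbols, 3 kinases with RPS6K symbols and the pseudogene RPS14P3. EIF2C1 (AGO1), which carries small RNAs to their targets, was higher by at least 2-fold in all 4 normalized pairs, with signals of 118 and 601 on the CD26+ arrays, against 24.8 and 61.9 on the CD26- arrays. EIF2C4 (AGO4) had 1198 and 27.3 on the CD26+ arrays, against 578 and 2453 on the CD26- arrays. EIF2C2 (AGO2), the slicing Argonaute, had 3 probe sets, of which the one with the highest mean of normalized log2 values, though not of deposited signals, gave 1120.5 and 2280.2 on the CD26+ arrays, against 2864 and 1927 on the CD26- arrays. The 3 Argonautes thus differed in direction. Another EIF2C2 probe set, 225569_at, gave 3061 and 36.3 on the CD26+ arrays, against 10422 and 7545 on the CD26- arrays, and was at least 2-fold lower in all 4 pairs. The log2 fold changes were 1.85 for EIF2C1 (standard error 0.88), -2.81 for EIF2C4 (1.95), -0.11 for EIF2C2 by the first of its probe sets named here and -4.90 by the other (2.15).

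RPS6KA5 (MSK1), a nuclear kinase downstream of MAP kinases, was lower on both CD26+ arrays, with signals of 209 and 31.5 on the CD26+ arrays, against 638 and 966 on the CD26- arrays. RPS6KA6 (RSK4) had 200.1 and 55.4 on the CD26+ arrays, against 88.2 and 91.7 on the CD26- arrays. RPS6KC1 had 876 and 78.0 on the CD26+ arrays, against 424 and 593 on the CD26- arrays. Of the kinases RPS6KA5 alone had groups apart, and its log2 fold change of -3.15 (standard error 1.34) was -1.38 without CD26+ replicate 2. RPS14P3 had 35891 and 3289 on the CD26+ arrays, against 11511 and 15734 on the CD26- arrays, the order over the arrays that CARS and GARS also had.

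Other genes of the pathway were counted from lists that were not picked for how they moved, though earlier results of these data were known. None passed the test, only genes in the authors' table could be read, and the counts of genes higher or lower on both CD26+ arrays stand against 24.4% and 19.5% of all genes of the table. Of 21 genes of release, recycling and poly(A) binding, 8 were listed, of which 2 were higher on both CD26+ arrays and 5 lower. DHPS, which makes the hypusine of EIF5A, had 728 and 1291 on the CD26+ arrays, against 289 and 256 on the CD26- arrays, and GSPT1, the release factor eRF3, had 485 and 66.1 on the CD26+ arrays, against 1870.4 and 1532 on the CD26- arrays. Of 12 scaffold proteins and tRNA partners of the synthetases, AIMP1 and FARSB were listed and both were lower, AIMP1 with 1418 and 276 on the CD26+ arrays, against 3128 and 2263 on the CD26- arrays, and FARSB with 70.2 and 53.5 on the CD26+ arrays, against 483 and 566 on the CD26- arrays. FARSB, a subunit of the phenylalanine enzyme, thus went the other way from the 6 synthetases on CD26+ replicate 1. Of 22 genes of mTORC1 signalling and translation control, 12 were listed, 0 higher and 3 lower, the lower ones being RICTOR, PDPK1 and PPP1R15B. Of 79 ribosome biogenesis genes, 14 were listed, 1 higher (TCOF1) and 5 lower. The medians of the log2 fold change were -1.36 over the release list, -2.75 over the scaffold list, -1.06 over the mTORC1 list and -0.67 over the biogenesis list, and without CD26+ replicate 2 they were -0.75, -1.47, 0.38 and -0.02. Of 6 ribosomal protein genes whose symbols the pattern cannot match, 0 were listed.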

How the data were processed

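Total RNA of 2 CD26+ and 2 CD26- samples of HT29 cells was measured on 4 arrays. The deposited intensity of a probe set is a linear signal that the authors scaled, and the trimmed mean of each array lay near 500.0. The authors used Genespring GX and Genomatix Genome Analyzer, with the summarization and the scaling not given in the sources used here. A further table of 1 CD26+ against 1 CD26- array, by the authors, gave symbols, Entrez identifiers and alignments. Its deposited log2 fold change served only to find which arrays it compared, and its other fold columns were not used. No column of values was left unmatched (0 columns). Another 8 probe sets with several symbols, of which at least 1 matched, were left out.

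Signals were quantile normalized, log2(signal + 16) was taken, 62 control probe sets were left out, and the fit of 54613 probe sets used limma 3.58.1 (R 4.3.3, lmFit, eBayes, two-sided, Benjamini-Hochberg, threshold 0.05). The fit was tested on simulated arrays that were alike and less noisy than these. That test does not cover an array that stands apart. Standard errors are those of the fit. Signals in the text are as deposited, and comparisons between groups are normalized. The number of arrays limits the precision. A gene stands for its single-symbol probe set with the highest mean of normalized log2 values, called its brightest.

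The members and lists were chosen with earlier results of these data known. Named were 28 genes: those at least 2-fold apart in all 4 pairs, the 4 brightest of each class, the 3 with the most or with opposing probe sets, and the extremes of CD26+ replicate 1 over CD26- replicate 2 in each class. Alternatives were other scalings, pseudocounts, filters, priors and probe set choices, the methods' t-test, a replicate block and each array left out. Added after seeing the data was a normalization of the other 3 arrays without CD26+ replicate 2. Some genes are not reported here.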

Additional observations from a re-analysis of the deposited data

How the results depend on the processing

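Of 81 values of the counts and class medians under an alternative, 71 were labelled as near the main value. For a count this meant within a fixed fold of the main count. For a class median it meant within the standard deviation of array medians between replicates. That was 1.725 for ribosomal proteins, 0.78 for factors and 1.70 for synthetases, with CD26+ replicate 2 included. A change of sign from -0.68 to 0.66 for ribosomal proteins was therefore still labelled as near. Leaving out 1 array moved most. The number of probe sets called lay between 0 and 23148 over these fits, and of member probe sets between 0 and 41, with the calls coming only without CD26+ replicate 1, where CD26+ replicate 2 stands alone and is assumed to vary like the CD26- arrays. The class medians of the log2 fold change lay between -1.27 and 0.66 for ribosomal proteins, -1.06 and 0.63 for factors and -1.65 and 1.24 for synthetases. Genes higher on both CD26+ arrays numbered 9 to 35, and genes lower 16 to 47. A share over all genes was counted only without CD26+ replicate 2 (46% higher and 32% lower), so nothing is read from the others. Groups overlap less easily with an array left out, so these counts are not comparable with those of all arrays. With the other 3 arrays normalized among themselves, an alternative chosen after seeing the data, the factor median was 0.60 and 35 genes were higher. With each array centred on its median 4 genes were higher, and neither of these counts has a share over all genes. The replicate numbers pair nothing that the labels name, and the deviations of same-numbered arrays correlated at 0.037 over probe sets. With the replicate number as a block 1 of all probe sets and 0 of the member probe sets were called, and 3345 and 10 had an unadjusted p under 0.05. The methods' t-test gave 1847 and 1 at that unadjusted threshold and 0 and 0 after Benjamini-Hochberg. Of the 28 named genes, 11 kept their sign under every alternative, 7 lower (EIF2C4, EIF3C, EIF5A2, RARS, RPL18, RPS27, RPS6KA5) and 4 higher (EIF2C1, EIF3D, EIF3I, EIF4EBP1) in CD26+ cells. Only EIF2C4 and RARS of these had groups that overlapped. In the others leaving out a single array could not have changed the sign. The replicate block leaves every estimate as it is, and the mean of probe sets does so for a gene with 1. The cause of these shifts was not tested.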
